A study of Mus musculus with 7 samples.

Results

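The gp130 cytokine receptors and the JAK-STAT genes that act behind them were examined in muscle stem cells (MuSCs) of uninjured mice. The 10 genes were Il6st, Lifr, Osmr, Jak1, Jak2, Stat3, Stat5a, Stat5b, Stat6 and Socs3, taken by symbol from 13280 genes in the count table. They were selected on their read counts in the same comparison that is described here, so their differences between the groups are given as a description and are not tested as a result. RNA-seq had been made from Gli1+ MuSCs (4 libraries) and Gli1- MuSCs (3 libraries), to ask how the transcripts of the Gli1-expressing fraction differ from those of the other MuSCs. Both groups came from Gli1-CreERT2; R26-tdT mice, sorted 3 days after tamoxifen (TAM), so the alleles and the TAM were shared by both. Gli1+ MuSCs were the tdT+ cells and Gli1- MuSCs the tdT- cells of the same gate (CD45-, CD31-, Sca1- and VCAM1+). In this model the Cre is driven by Gli1, and tdT marks a cell that expressed Gli1 when TAM was given, whether or not it still does. The labels give the background as C57BL/6, while the study's methods describe a mixed background of C57BL6 and another strain. Each library was made from 1 ng of total RNA. The study describes its replicates as independent experiments, and whether each library is 1 mouse or a pool was not stated.

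Cytokines of the IL-6 family, such as IL-6, LIF and oncostatin M, share the receptor chain gp130, which Il6st encodes. LIF and oncostatin M bring together gp130 and a partner chain (LIFR or OSMR). The JAK kinases bound to the receptor chains phosphorylate each other and the receptor, and STAT proteins are recruited, phosphorylated and moved to the nucleus. Socs3 is a STAT3 target whose protein binds gp130 and the JAKs and shuts the signal down. In MuSCs, STAT3 is known for a part in the choice between expansion and differentiation.

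All 10 genes were read, and all 10 passed the filter of 5 reads in at least 2 libraries. None of them was called at an adjusted p under 0.05 by edgeR's quasi-likelihood test, where the share of all 11134 genes called was 0%. At an unadjusted p under 0.05 edgeR counted 238 genes (2.14%), none of them among the 10, and at an adjusted p under 0.05 DESeq2 called 66 genes and limma-voom 3. The log2 fold change of Gli1+ over Gli1- MuSCs was above 0 in 4 of the 10 genes and below 0 in 6. Over all 11134 genes tested it was above 0 in 7267. Its median over the 10 genes was -0.10, beside 0.30 over all genes tested. The groups did not overlap in 1 of the 10, Stat3, which was lower in every Gli1+ library. Of all genes tested, 0.934% were lower in that way and 2.87% were higher.

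The libraries held 10595181 to 13781283 reads in Gli1+ MuSCs and 12808512 to 19662721 in Gli1- MuSCs. Reads were found for 8579 to 10016 genes in the Gli1+ libraries, and for 10829, 5471 and 6834 genes in Gli1- replicates 1, 2 and 3, so Gli1- replicates 2 and 3 stood apart with few genes. Levels are given as CPM, read counts divided by the library size after TMM scaling. Gli1, the sorted gene, averaged 26.6 ± 18.4 CPM in Gli1+ MuSCs and 3.86 ± 6.68 CPM in Gli1- MuSCs (SD, n = 4 and 3), with no read in 2 Gli1- libraries. The MuSC gene Pax7 was present in all 7 libraries. The summed CPM of 12 MuSC markers was 5345.2 to 7340.9 in Gli1+ and 6081.2 to 7929 in Gli1- libraries. Ptprc, which encodes CD45, had no read in 3 of 4 Gli1+ and 3 of 3 Gli1- libraries, and Pdgfra, a gene of fibro-adipogenic progenitors (FAPs), had none in 2 and 2. Other markers of these cells were read. The summed CPM of 12 FAP and fibroblast markers was 2955.6 to 11176.2 in Gli1+ and 3116.8 to 5626.2 in Gli1- libraries. In Gli1+ replicates 3 and 4 alone it was above the MuSC sum. The sum of 13 blood markers was 0.185 to 443 CPM in Gli1+ and 24.1 to 284 CPM in Gli1- libraries. Pecam1, which encodes the gate's CD31, reached 334 CPM in Gli1+ and 434 CPM in Gli1- libraries.

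**Figure D1:**
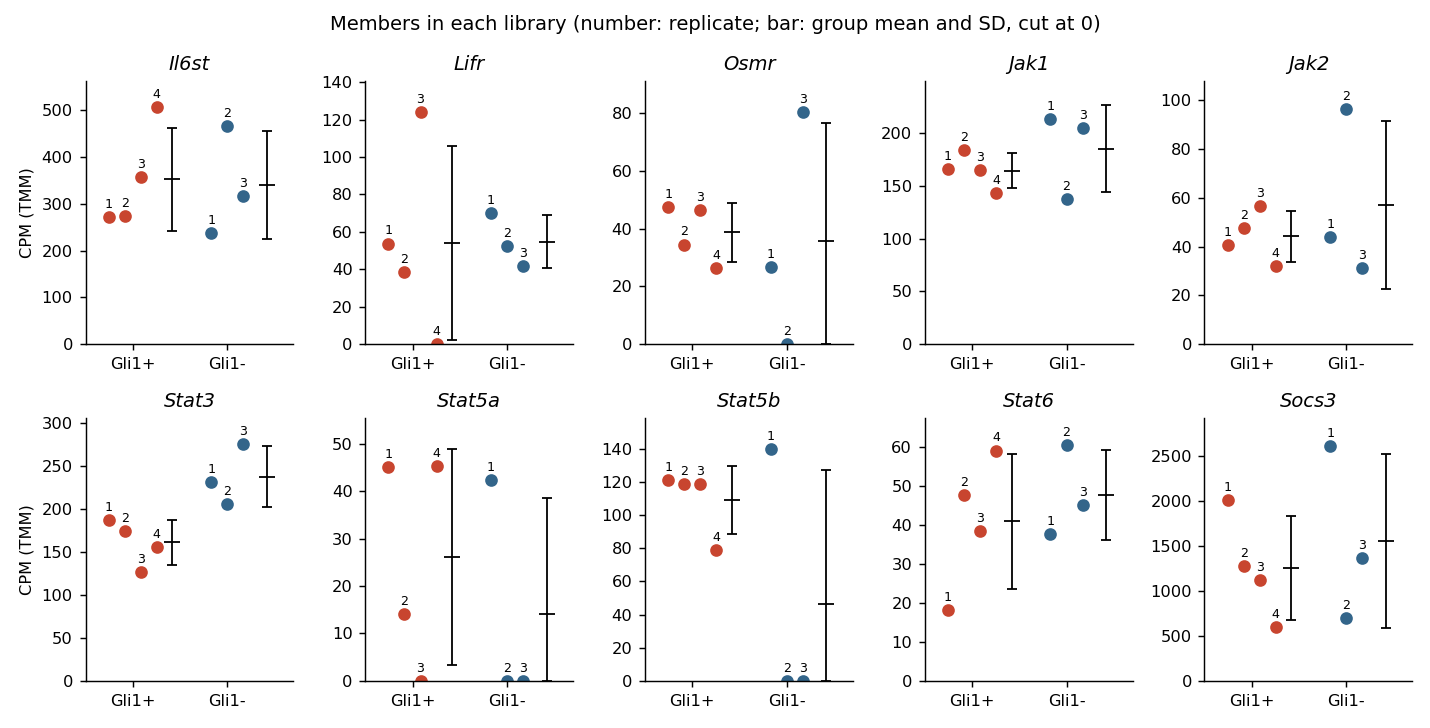
CPM of the 10 genes in each library, Gli1+ MuSCs left and Gli1- MuSCs right, with the replicate number over each point and a bar for the group mean and SD. In the Stat3 panel the Gli1+ libraries lie at 127 to 187 CPM and the Gli1- libraries at 206 to 276 CPM, and in the Stat5b panel Gli1- replicates 2 and 3 lie at 0.

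The 3 receptor genes overlapped between the groups. Il6st, the shared chain, had 272, 273, 357 and 506 CPM in Gli1+ replicates 1 to 4, against 238, 465 and 316 CPM in Gli1- replicates 1 to 3. Neither group held all of the high libraries, and the log2 fold change was 0.05 (SE 0.35). Lifr, the partner chain for LIF, had 53.8, 38.7, 124 and 0 CPM in Gli1+ libraries, against 70.0, 52.3 and 41.9 CPM in Gli1- libraries. It was read in every library but Gli1+ replicate 4, which had the highest Il6st of the 7. Of 1625 genes whose mean elsewhere was 50 to 100 CPM, 14 (0.862%) lacked reads in Gli1+ replicate 4. The log2 fold change of Lifr was -0.02 (SE 1.42). Leaving out Gli1+ replicate 3 gave -0.83, leaving out Gli1+ replicate 4 gave 0.38, and limma-voom gave -2.17. Osmr, the oncostatin M chain, had 47.5, 34.5, 46.4 and 26.4 CPM in Gli1+ libraries, against 26.6, 0 and 80.3 CPM in Gli1- libraries. The highest and the lowest library were both Gli1-, and the log2 fold change was 0.12 (SE 1.64). Leaving out Gli1- replicate 3 gave 1.54, leaving out Gli1- replicate 2 gave -0.47, and limma-voom gave 3.09. An absent read was common at that level in Gli1- replicate 2, which lacked reads for 51.0% of the genes whose mean elsewhere was 20 to 50 CPM.

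The genes of both partner chains are neighbours. In GRCm38, Osmr lies at chr15:6813577-6874969 on the minus strand and Lifr at chr15:7090614-7197489 on the plus strand, 215.6 kb apart with no protein-coding gene between them. In the libraries with reads of both, Il6st had 6.25 to 20.9 times the Osmr level per kb of exon in Gli1+ MuSCs and 4.3 to 9.78 times in Gli1- MuSCs. In bulk RNA, fewer cells with a transcript and less of it per cell cannot be told apart.

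Both kinases were read in all 7 libraries. Jak1, the main kinase of gp130, had 166, 184, 165 and 143 CPM in Gli1+ libraries, against 213, 138 and 205 CPM in Gli1- libraries. Its coefficient of variation was 10.2% in Gli1+ MuSCs, the lowest of the 10 genes there, and 22.3% in Gli1- MuSCs, and its log2 fold change was -0.17 (SE 0.31). Jak2, the kinase of erythropoietin and growth hormone receptors as well, had 40.8, 47.5, 56.7 and 32.1 CPM in Gli1+ libraries, against 44.0, 96.2 and 31.3 CPM in Gli1- libraries. Gli1- replicate 2 alone was far above the rest. The log2 fold change was -0.37 (SE 0.78), and 0.23 without that library.

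Stat3, the main STAT of gp130, was the only gene of the 10 with separate groups. It had 187, 174, 127 and 156 CPM in Gli1+ libraries, against 231, 206 and 276 CPM in Gli1- libraries. The lowest Gli1- library stood above the highest Gli1+ library, and this held with library totals or DESeq2 size factors in place of TMM. The means were 161 ± 26.1 CPM in Gli1+ and 237 ± 35.4 CPM in Gli1- MuSCs (SD, n = 4 and 3). The log2 fold change was -0.56 (SE 0.30). It stayed between -0.67 and -0.44 over 16 alternative settings, and the lowest adjusted p of those edgeR, DESeq2 and limma-voom fits was 0.421. The 3' end of Stat3 (chr11:100885098-100939540, minus strand) overlaps that of Stat5a (chr11:100859351-100885169, plus strand) over 72 exonic bases. The sources do not tell if the counting used strand.

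**Figure D2:**
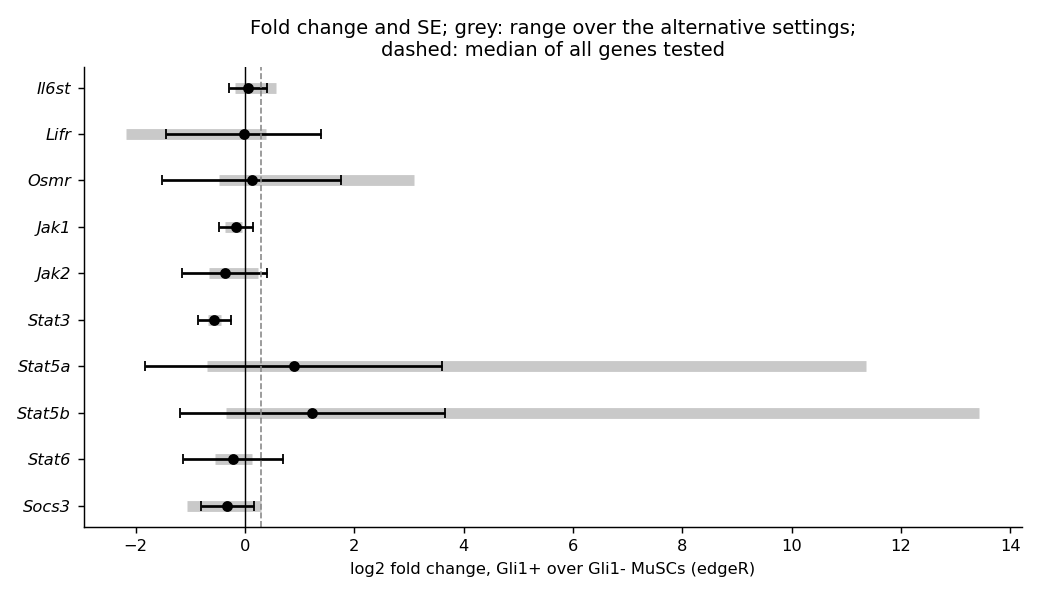
Log2 fold change of Gli1+ over Gli1- MuSCs for the 10 genes (edgeR; point and SE), the range over 16 alternative settings in grey, and the median of all genes tested, 0.30, as a dashed line. Stat3 lies below 0 over its whole range, while the grey bars of Stat5a and Stat5b reach 11.36 and 13.43.

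Stat5a and Stat5b encode near-identical proteins that carry signals of growth hormone, prolactin and several interleukins. The 2 genes lie 8.6 kb apart on chromosome 11, and their coding sequences were identical at 90.8% of 2291 aligned bases. The longest identical run was 324 bases over exons 6 to 8. Its part in exon 7 is shown because reads within it cannot be told apart, and it stands at chr11:100874339-100874490 on the plus strand in Stat5a and chr11:100798234-100798385 on the minus strand in Stat5b (GRCm38):
Stat5a and Stat5b exon 7: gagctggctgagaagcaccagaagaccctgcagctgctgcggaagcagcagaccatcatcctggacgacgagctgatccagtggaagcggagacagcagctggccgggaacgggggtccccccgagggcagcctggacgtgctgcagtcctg

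Of the 31-base stretches of each gene's transcripts, 11.5% in Stat5a and 15.1% in Stat5b were also in the other gene, so the 2 counts are uncertain where reads were split between them. In the other 8 genes at most 1.72% of such stretches were in any other gene.

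Stat5b had 1304, 1634, 1306 and 781 reads in Gli1+ replicates 1 to 4, against 2584, 0 and 0 reads in Gli1- replicates 1 to 3. As CPM these were 121, 119, 119 and 78.7 in Gli1+ libraries, against 140, 0 and 0 in Gli1- libraries. The groups therefore overlapped through a single library: Gli1- replicate 1 was the highest of the 7, and the other Gli1- libraries had no read. A count of 0 allows up to 3 reads, or at most 0.206 CPM in those libraries, for counting error alone. Stat5a had 45.1, 14.1, 0 and 45.3 CPM in Gli1+ libraries, against 42.4, 0 and 0 CPM in Gli1- libraries. Stat5a was thus without a read in the same 2 Gli1- libraries, and in Gli1+ replicate 3 too. Where both genes were read, Stat5b was 2.24 to 10.8 times Stat5a per kb in 3 Gli1+ libraries and 4.24 times in 1 Gli1- library.

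The empty libraries set what can be said of Stat5b. The log2 fold change was 1.23 (SE 2.42) for Stat5b and 0.89 (SE 2.72) for Stat5a. Without Gli1- replicate 1, Stat5b was called higher in Gli1+ MuSCs by edgeR with an adjusted p of 0.0289, as 1 of 2 genes (0.0189% of 10556). Its fitted log2 fold change was then 13.43, which depends on the prior count because both Gli1- libraries left had no read. Without both Gli1- replicates 2 and 3 it was -0.35, from a lone Gli1- library assumed to vary like the others. Gli1- replicates 2 and 3 lacked reads of many genes: 767 genes (6.89% of those tested) had at least 5 reads in each of the other 5 libraries and none in these. Stat5b was number 3 of them by level, with 115 CPM over the other 5 libraries beside a median of 24.0. The share without a read in both was 19.0% of genes at 20 to 50 CPM, 3.76% at 50 to 100 CPM and 0.588% (5 of 850) at 100 to 200 CPM. The low number of genes read in these libraries moved with the zeros of Stat5b, and its part in them was not tested.

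Stat6, the STAT of IL-4 and IL-13, had 18.2, 47.8, 38.5 and 59.1 CPM in Gli1+ libraries, against 37.7, 60.4 and 45.1 CPM in Gli1- libraries. The lowest library was Gli1+ replicate 1, and the other 6 were intermixed. The log2 fold change was -0.22 (SE 0.92).

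Socs3, the inhibitor, was the most abundant of the 10, also per length. It had 2007.9, 1281, 1118.1 and 604 CPM in Gli1+ libraries, against 2610.8, 702 and 1366.8 CPM in Gli1- libraries. It took 0.051% to 0.245% of all reads of a library and ranked between 41st and 240th by reads. The groups overlapped over most of their range, and the log2 fold change was -0.32 (SE 0.48). Leaving out Gli1- replicate 1, the highest library, turned it to 0.29. Socs3 was set beside immediate early genes, which tissue digestion is known to induce. The summed CPM of 19 such genes was 73610.6 to 151983.2 in Gli1+ and 65385.1 to 173645.5 in Gli1- libraries, most of it from the heat shock genes Hspa1a and Hspa1b. Over the 7 libraries the 2 measures had a Pearson r of 0.75 (exact permutation p = 0.0651, adjusted over 18 relations 0.116) and a Spearman rho of 0.64 (exact permutation p = 0.139, adjusted 0.156). Without the 2 libraries farthest from the median of the sum, r was 0.66.

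STAT and GLI motifs were searched in the promoters of the 10 genes, and 1 match was found, a STAT motif in that of Socs3. The 250 bases before the start were searched in RefSeq promoters of GRCm38.p6 (13 windows for the 10 genes), on both strands. Some windows lie partly or wholly in exons of other annotated transcripts of the same gene. These include 77 bases of the Socs3 window and all 250 of the Osmr window. TTCNNNGAA, the spacing of STAT3 and STAT5, was in 7.02% of 32851 promoters. The 1 match in 13 windows is near that share. The STAT6 spacing, the same half-sites set 1 base farther apart, was in 5.85%. The GLI motif GACCACCCA was in 0.225%. The Socs3 match starts 154 bases before the start site. It is shown in capitals in the part of the promoter outside exons, chr11:117969452-117969616, read on the minus strand:
Socs3 promoter: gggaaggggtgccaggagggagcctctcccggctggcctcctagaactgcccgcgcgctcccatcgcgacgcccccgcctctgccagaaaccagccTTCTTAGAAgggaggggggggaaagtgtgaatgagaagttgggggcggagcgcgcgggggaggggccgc

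Such a match describes letters and is not a measured site. Windows without a match say only that these letters are not in them.

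Levels were compared between genes as CPM per kb of exon. The order over the 7 libraries was Socs3 (479 CPM per kb), Il6st (31.2), Jak1 (24.0), Stat3 (20.3), Stat5b (14.9), Stat6 (9.96), Jak2 (9.90), Lifr (5.04), Osmr (3.09) and Stat5a (2.94). Socs3 was above Il6st in all 7 libraries, and Jak2 above Lifr in 6 of 7. Some neighbours were not parted by library: Stat3 was above Stat5b, Stat6 above Jak2 and Osmr above Stat5a in only 3 of 7 libraries. In the remaining steps the higher gene was above the next in 5 of 7 libraries. Among all genes tested, Socs3 was at the 98.9th percentile of level per kb, Il6st at the 90.5th and Stat5a at the 34.6th. With the longest transcript as the length, Osmr (6.81) moved above Lifr (5.63).

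**Figure D3:**
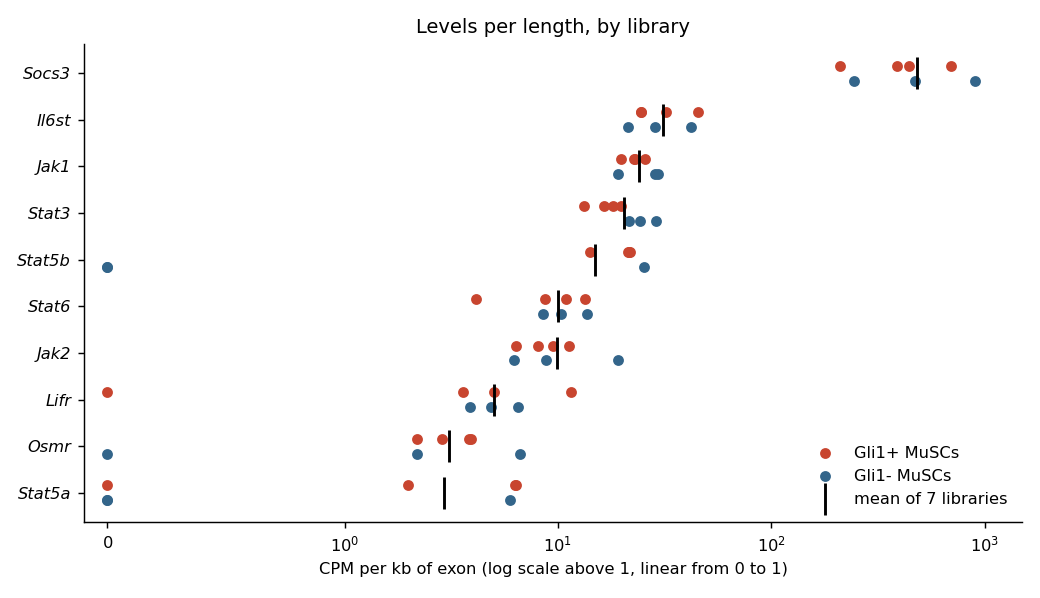
CPM per kb of exon for the 10 genes, ordered by the mean of the 7 libraries (black bar), with Gli1+ libraries as red points above Gli1- libraries in blue, on an axis that is log above 1 and linear below. Socs3 stands apart at a mean of 479 CPM per kb, and points at 0 are libraries with no read.

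The 10 genes were also compared pair by pair across libraries. Among the 45 pairs of the 10 genes, Socs3 and Il6st were most opposed, with a Pearson r of -0.96 over the 7 libraries on log2(CPM + 1) (exact permutation p = 0.000595, adjusted over 45 pairs 0.0268). Spearman's rho was -0.96 (exact permutation p = 0.00278, adjusted 0.125). Without the 2 libraries farthest from the Socs3 median, r was -0.91. The pair was singled out after its value was seen, and it was the only 1 of the 45 with an adjusted p under 0.05 by r, and no pair had one by rho. The 10 genes were chosen on these same counts, and the adjustment covers the 45 pairs alone. The share of other genes with such an r to Il6st or Socs3 is not given, so the relation is a description. Gli1+ replicate 4 and Gli1- replicate 2 had the most Il6st and the least Socs3, and Gli1- replicate 1 the reverse, so the relation crossed the groups.

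**Figure D4:**
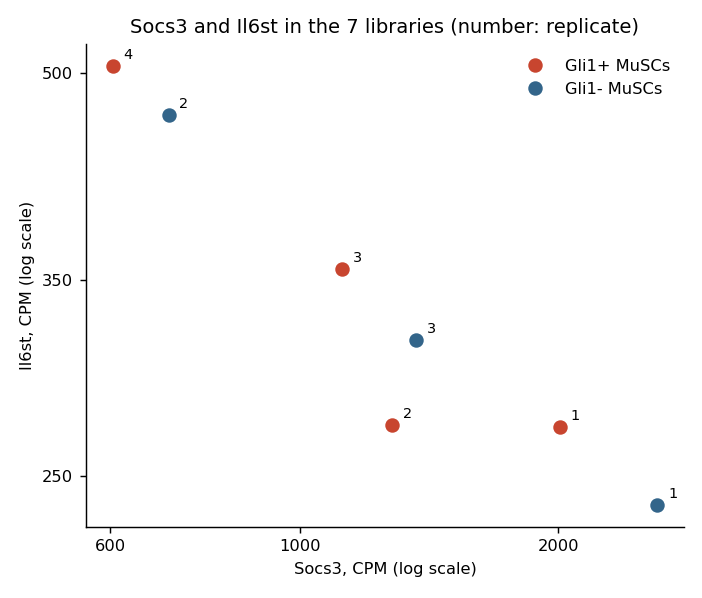
Il6st CPM against Socs3 CPM in the 7 libraries, both axes log, with the replicate number beside each point, Gli1+ in red and Gli1- in blue. The points run downward from Gli1+ replicate 4 (604 and 506 CPM) to Gli1- replicate 1 (2610.8 and 238 CPM).

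Markers of other cells were set beside both genes. The summed CPM of 12 FAP and fibroblast markers was 2955.6, 4235.3, 7942.2 and 11176.2 in Gli1+ libraries, against 3116.8, 5626.2 and 4273.2 in Gli1- libraries. On average, most of this sum came from Gsn and Col3a1. They averaged 2050.4 and 2136.7 CPM in Gli1+ MuSCs, and 1865.4 and 1113.7 CPM in Gli1- MuSCs. With this sum Il6st had a Pearson r of 0.86 (exact permutation p = 0.0183, adjusted over 18 relations 0.11) and a rho of 0.93 (exact permutation p = 0.00675, adjusted 0.0864). Without the 2 libraries farthest from the median of the sum, r was 0.87. Socs3 had an r of -0.86 (exact permutation p = 0.0141, adjusted 0.11), a rho of -0.89 (exact permutation p = 0.0123, adjusted 0.0864) and, without those 2 libraries, an r of -0.96. Some of the other sums gave values of similar size. Il6st had an r of 0.87 with the tenocyte sum, 0.81 with the Schwann sum, 0.73 with the endothelial sum and -0.80 with the immediate early sum. Socs3 had an r of -0.79 with the tenocyte sum, -0.78 with the Schwann sum and -0.68 with the endothelial sum. With the blood sum r was 0.72 for Il6st and -0.75 for Socs3. Smaller values came from the pericyte sum (0.61 for Il6st and -0.53 for Socs3) and the MuSC sum (-0.54 and 0.59). The mature myofibre sum gave 0.02 and 0.04. Without the 2 libraries farthest from the median of each sum, other sums reached values like those of the FAP sum. For Il6st, r was then 1.0 with the blood, 0.93 with the pericyte, 0.86 with the endothelial, 0.85 with the Schwann and 0.78 with the tenocyte sum. For Socs3 it was -0.94, -0.73, -0.80, -0.87 and -0.82 in that order. The MuSC sum gave -0.61 for Il6st and 0.70 for Socs3, and the mature myofibre sum -0.38 and 0.57. No relation of the 18 had an adjusted p under 0.05 by the exact permutation test. The endothelial sum was 186 to 2317.5 in Gli1+ and 192 to 1612.4 in Gli1- libraries, and the blood sum 0.185 to 443 and 24.1 to 284. The part of these cells in the levels of Il6st and Socs3 was not tested.

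Il6st was most alike in pattern to Myl6 (r = 0.977), Cd34 (0.974) and Mcrip1 (0.971), among 3697 genes with at least 5 reads in each of the 7 libraries. Stat3 was most alike to Bms1 (0.949), Sav1 (0.937) and Rrn3 (0.934). These are the highest of many values, over 7 libraries that share their depth and quality with every gene.

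The rest of the pathway was read from a list of 102 genes by role, of which 84 were in the table and 76 were tested. The log2 fold change was above 0 for 47 of the 76 and below 0 for 29, where 7267 of all 11134 genes tested were above 0. The median was 0.14, beside 0.30 over all genes tested. None of the 76 was called by edgeR at an adjusted p under 0.05. DESeq2 called 1, Retnla. At an unadjusted p under 0.05 edgeR counted 2, both higher in Gli1+ MuSCs. The groups did not overlap in 4 of the 76, all higher in Gli1+ MuSCs. Of all genes tested, 2.87% were higher in that way and 0.934% were lower.

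Ligands were few. Of 11 IL-6 family ligands 5 were in the table and all 5 were tested. Clcf1, a cytokine of the CNTF receptor, had 1312, 1972, 528 and 503 reads in Gli1+ libraries, against 3163, 849 and 1117 reads in Gli1- libraries, a log2 fold change of -0.14 (SE 0.53). It was read in all 7 libraries and was not called. Il6 had 86, 83, 274 and 0 reads in Gli1+ libraries, against 203, 897 and 0 reads in Gli1- libraries. It was thus low or absent in both groups, apart from Gli1- replicate 2.

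Of the other gp130-family receptors, Il11ra1, the IL-11 chain, averaged 192 ± 33.3 CPM in Gli1+ and 134 ± 36.2 CPM in Gli1- MuSCs (log2 fold change 0.52, SE 0.33). Cntfr, the CNTF chain, had reads in 2 of 4 Gli1+ and 1 of 3 Gli1- libraries. Lepr, the leptin receptor, had 206, 1131, 332 and 168 reads in Gli1+ libraries, against 163, 0 and 0 reads in Gli1- libraries. Its groups did not overlap as CPM, and its log2 fold change was 3.65 (SE 2.60) with an adjusted p of 1.00 by edgeR. Its zeros were in the same libraries as those of Stat5b. Of 14 tested receptors outside the gp130 family that signal through JAKs, 11 were above 0. Ifnar1 and Ifngr1, of the interferon receptors, were read in all 7 libraries at 66.2 ± 16.8 and 78.8 ± 24.7 CPM in Gli1+ MuSCs, against 75.0 ± 10.3 and 71.2 ± 30.5 CPM in Gli1- MuSCs. Il10rb, the shared chain of the IL-10 family, was named because its groups did not overlap, with 12.3 to 37.8 CPM in Gli1+ and 0 to 9.47 CPM in Gli1- libraries (log2 fold change 2.78, SE 2.79). It was read in only 1 of 3 Gli1- libraries. Without both Gli1- replicates 2 and 3 its log2 fold change was 1.20, from a lone Gli1- library.

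Tyk2, another JAK kinase, had reads in 2 of 4 Gli1+ and 1 of 3 Gli1- libraries. Stat2, a STAT of type I interferon signals, was read in 4 of 4 Gli1+ and 1 of 3 Gli1- libraries, with a log2 fold change of 1.85 (SE 2.55).

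Among 16 tested inhibitors and phosphatases, 9 were above 0. Socs2, an inhibitor of growth hormone signals, averaged 103 ± 14.7 CPM in Gli1+ and 106 ± 33.4 CPM in Gli1- MuSCs (log2 fold change -0.05, SE 0.37). The phosphatase Ptpn1, which acts on JAKs, averaged 86.0 ± 12.3 CPM in Gli1+ and 121 ± 78.7 CPM in Gli1- MuSCs, and Ptpn11, which encodes SHP2, averaged 88.3 ± 43.9 CPM in Gli1+ and 114 ± 30.7 CPM in Gli1- MuSCs. Socs1 had reads in 3 of 4 Gli1+ and 1 of 3 Gli1- libraries. Of 8 adaptors and scaffolds, some of which link receptors to RAS and ERK, 5 were above 0. Shc1 averaged 71.1 ± 25.7 CPM in Gli1+ and 70.4 ± 5.90 CPM in Gli1- MuSCs, and Gab1 averaged 76.7 ± 23.2 CPM in Gli1+ and 80.6 ± 80.6 CPM in Gli1- MuSCs, being absent from Gli1- replicate 2.

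Targets of STAT3 were above 0 in 12 of 22. Junb, an AP-1 gene, averaged 4710.1 ± 1542.4 CPM in Gli1+ and 5466.7 ± 3155.6 CPM in Gli1- MuSCs, a log2 fold change of -0.21 (SE 0.44). Cebpd averaged 1534.1 ± 601 CPM in Gli1+ and 2103.9 ± 1193.3 CPM in Gli1- MuSCs, a log2 fold change of -0.46 (SE 0.45). Both are also immediate early or stress genes. Ccnd1, which encodes cyclin D1 of the G1 phase, averaged 160 ± 60.5 CPM in Gli1+ and 74.4 ± 38.8 CPM in Gli1- MuSCs. It was 1 of the 2 genes counted at an unadjusted p under 0.05, with a log2 fold change of 1.10 (SE 0.45) and an adjusted p of 1.00 by edgeR. Its groups overlapped with TMM.

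Pim1, a kinase gene that both STAT3 and STAT5 induce, averaged 139 CPM in Gli1+ and 144 CPM in Gli1- MuSCs, a log2 fold change of -0.05 (SE 0.35). Igf1, a STAT5 target and growth factor, was named because its groups did not overlap. It had 82.6 to 254 CPM in Gli1+ and 0 to 49.1 CPM in Gli1- libraries, and its log2 fold change was 2.47 (SE 1.65). Retnla, a STAT6 target known from alternatively activated macrophages, had 0, 0, 771 and 642 reads in Gli1+ libraries, against 0, 0 and 0 reads in Gli1- libraries. Gli1+ replicates 3 and 4 also had the highest sums of blood markers, 443 and 350 CPM, and Gli1- replicate 2 had 284 CPM of them with no Retnla read. The same 2 libraries had the highest FAP, tenocyte, Schwann and pericyte sums too, so the match is not particular to blood markers. The part of blood cells or of other cells in the Retnla reads was not tested.

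**Figure D5:**
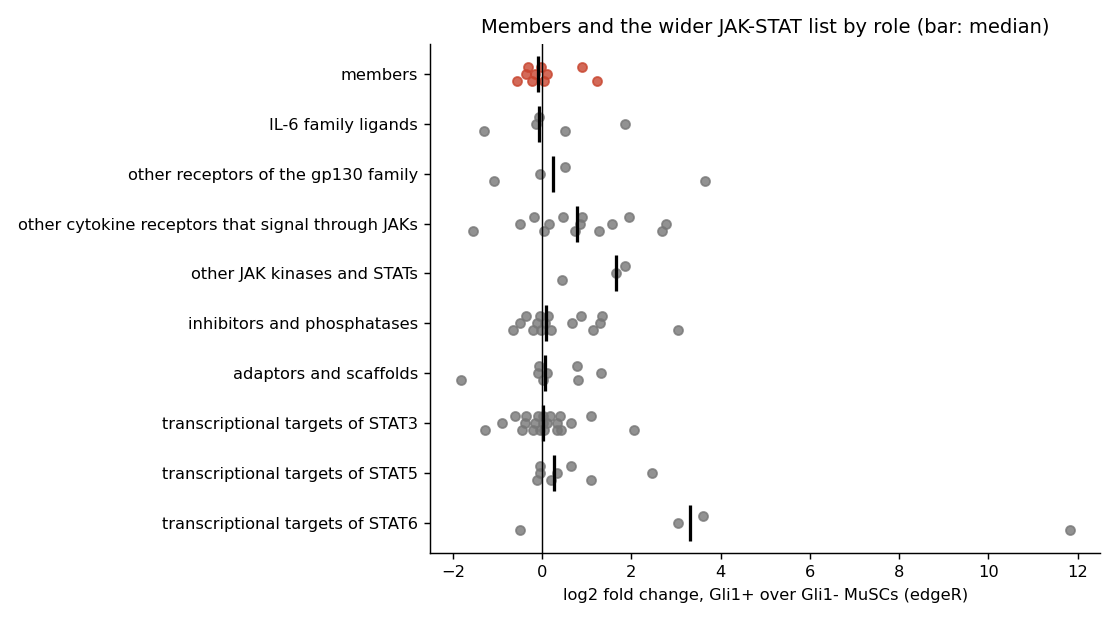
Log2 fold changes of Gli1+ over Gli1- MuSCs (edgeR) for the 10 genes in red and the tested genes of the wider list by role in grey, with a bar at each median. The 10 genes lie around a median of -0.10, and the point at the far right is Retnla, with no read in any Gli1- library.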

How the data were processed

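The table that the authors deposited gives a raw count per gene in each of 7 RNA-seq libraries. Their methods give STAR on GRCm38 with tximport, CASAVA and HISAT2 2.0.5 stand in the submitters' processing notes instead, and the strand setting was not stated. Another 14 per-sample columns, of normalized values, were left out, as were the authors' own fold changes and p-values. Groups and replicates came from the sample titles.

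A minimum of 5 reads in 2 or more libraries kept 11134 of 13280 genes. Gli1+ over Gli1- MuSCs was tested with edgeR 4.0.16 (quasi-likelihood, robust, TMM) in R 4.3.3, two-sided, with Benjamini-Hochberg adjustment over all genes tested. Standard errors were the log2 fold change over the root of F. Libraries held 10595181 to 19662721 reads, and the common dispersion of 3.11 (a biological coefficient of variation of 1.76) limits the precision. If the libraries are not separate animals, p-values measure only the spread between libraries.

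Alternatives were DESeq2 1.42.0, limma-voom (limma 3.58.1), other scalings and filters, no robust estimation, a replicate block and leaving out each library. A fit without both Gli1- libraries of few genes was added after the data were seen. Coordinates, exon lengths and shared stretches came from GENCODE M21, promoters from RefSeq. The members and lists were chosen with earlier results of these data known. The rule for named genes took the 10 genes, the 3 best-read genes of each role, any wider-list gene at an unadjusted p under 0.05, defining and abundant markers, neighbours that share exons, and the 3 genes most alike to Il6st and Stat3. Genes whose groups did not overlap were named after their values were seen. The values of some single genes are left out here.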

Additional observations from a re-analysis of the deposited data

Results flagged for a closer look

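Stat5b in Gli1+ replicate 4, at 78.7 CPM, lay far below the other 3 Gli1+ libraries, which were at 119 to 121 CPM. The gap took 0.953 of the group's range, above Dixon's critical value for 4 samples. The 10 genes were each checked once in Gli1+ MuSCs, and chance alone flags a group at a rate of 0.05.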

How the results depend on the processing

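No gene was called by edgeR with another scaling, another filter or without robust estimation. DESeq2 called 66 genes, limma-voom 3, and leaving out 1 library gave 0 to 2. The 2 were called without Gli1- replicate 1 and 1 gene without Gli1- replicate 2. Of the 10 genes, 0 to 1 were called with 1 library left out, Stat5b without Gli1- replicate 1. DESeq2 called 1 gene of the wider list. The median of the 10 stayed below 0 under all 16 alternatives. The median of all genes tested was 0.30, and it moved to 0.80 with limma-voom, 0.52 with the block and 0.63 without Gli1- replicate 1. Without both Gli1- libraries of few genes, where the lone Gli1- library is assumed to vary like the others, it was -0.04 and edgeR called none. Gli1- replicates 2 and 3 had fewer genes read than libraries of fewer reads. The part of the read total in their zeros was not tested.

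For libraries of equal replicate number, the deviations from the group means had an r of 0.24, -0.11 and 0.07. The first of these was the highest of any pair, and not every library correlated best with its own number. So few libraries cannot show whether the numbers pair them. With the replicate block edgeR called 0 genes, and 78 at an unadjusted p under 0.05. With the block Il6st (-0.13), Lifr (0.23) and Socs3 (0.06) changed sign among the 10 genes, and Stat5b was 9.69. In the wider list the log2 fold changes of Clcf1 (0.06), Il6 (0.04), Socs2 (0.02) and Junb (0.10) turned positive, as did Il6 with limma-voom (0.04). With 1 library left out, Clcf1 ranged over -0.45 to 0.50, Il6 over -2.37 to 0.82, Socs2 over -0.27 to 0.18, Junb over -0.52 to 0.35, Pim1 over -0.23 to 0.10 and Cebpd over -0.81 to 0.05. The cause was not tested.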
